A study of Mus musculus with 31 samples.

Results

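The genes examined here encode the proteasome, and they were taken by name. They are the rows present in the count tables of all 3 adipose depots whose RefSeq accession maps to a symbol starting with Psma, Psmb, Psmc, Psmd, Psme or Psmg; where a symbol had several rows, the row with the highest total count was kept. This gave 45 genes of 17334 accession rows in the series, or of 13375 rows present in all 3 tables. They are 7 alpha and 7 beta subunits of the 20S core, 3 inducible catalytic beta subunits, 6 ATPases and 10 other subunits of the 19S cap, 5 activator genes, and 7 assembly and other genes. Psme3ip1, counted with the activators, and Psmc3ip, counted with the assembly genes, carry the name of a proteasome gene they were found to bind and are not themselves subunits. Psmd2 and Psmd10 were not analysed here, and Psma8 and Psmb11 had no row in at least 1 table.

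The proteasome is the barrel-shaped protease that degrades proteins tagged with ubiquitin. Its 20S core stacks alpha rings, which gate the barrel, on beta rings, which hold the cutting sites, and the 19S cap recognises, unfolds and feeds in the substrate. Interferon-induced beta subunits can replace the constitutive catalytic ones and change which peptides are made for antigen presentation, and the protein of Nfe2l1 is a transcription factor that is known to raise proteasome gene expression in brown fat during cold adaptation.

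The study profiled RNA from male C57BL/6J mice aged 8 weeks by sequencing. All mice, including those never placed in the cold, had first been housed at thermoneutrality for 8 days; cold groups were then moved to 4 °C for 2 or 4 days. Libraries came from 1 µg of total RNA of interscapular brown (iBAT), inguinal subcutaneous white (iWAT) and epididymal white (eWAT) adipose tissue. At days 0, 2 and 4 there were 3, 4 and 3 iBAT, 4, 3 and 5 iWAT, and 3, 3 and 3 eWAT libraries. Nothing in the labels says that libraries of a group came from separate mice, so p-values measure only the spread between these libraries.

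The deposited counts summed to 1577168 to 3756389 per iBAT library, 1502823 to 5527239 per iWAT library and 3193060 to 4033224 per eWAT library. The brown adipocyte gene Ucp1 reached 5125 to 9531 CPM (the counts of a library scaled to a fixed total, with library sizes normalised across all 31 libraries) in day 0 iBAT, 45.78 to 498.6 CPM in day 0 iWAT, and at most 43.64 CPM in any eWAT library. Libraries also held RNA of neighbouring tissues. The summed level of 12 skeletal muscle markers was 4720 to 51860 CPM in iBAT, that of 11 lymphocyte markers was 1012 to 3791 CPM in iWAT against 0 to 49.91 CPM in the other depots, and that of 12 epididymis and testis markers reached 31870 CPM in eWAT. The libraries iBAT539 (day 2) and iBAT548 (day 4) differed in kind, with 159 and 57 rows at a count of 1 and 8698 and 7535 rows detected, and values that moved most without them are given both ways. In these bulk samples, fewer cells of a type and less RNA per cell cannot be told apart.

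The 2 promoters below belong to the pair of alternative chymotrypsin-like subunits around which the results turn, Psmb8 (inducible) and Psmb5 (constitutive). Each is the 250 bases upstream of the annotated start, 5′ to 3′ on the gene's own strand, from RefSeq on GRCm38.p6. Psmb8 lies on chromosome 17 at 34198195 to 34201454, plus strand, and its window is chr17:34197945-34198194. Psmb5 lies on chromosome 14 at 54614120 to 54617995, minus strand, and its window is chr14:54617996-54618245. Capitals mark a match to TGACNNNGC, the core of the antioxidant response element, which Nfe2l1 protein and its relatives bind.
Psmb8: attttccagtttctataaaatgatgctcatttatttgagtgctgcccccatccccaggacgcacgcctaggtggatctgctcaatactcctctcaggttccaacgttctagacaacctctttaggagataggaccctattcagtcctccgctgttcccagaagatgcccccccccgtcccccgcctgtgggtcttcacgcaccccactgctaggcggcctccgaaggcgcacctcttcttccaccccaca
Psmb5: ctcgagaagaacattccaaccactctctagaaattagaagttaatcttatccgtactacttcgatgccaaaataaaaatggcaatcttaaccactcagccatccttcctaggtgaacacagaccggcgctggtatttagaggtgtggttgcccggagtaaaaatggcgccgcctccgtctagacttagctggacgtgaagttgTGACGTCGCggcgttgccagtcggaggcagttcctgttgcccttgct
The match in the Psmb5 window starts at position -47 relative to the start. Both strands were searched, and no other motif searched matched in either window. TGACNNNGC occurred upstream of 5 of the 38 proteasome genes with a promoter sequence (Psmb5, Psmb6, Psmc6, Psmd12 and Psmd9) and in 10.2% of 32851 promoters. The core of the interferon-stimulated response element, GAAA repeated after any 2 bases, occurred upstream of 3 of 38 (Psmb3, Psmd4 and Psmd9) and in 2.98% of promoters, and CCAAT upstream of 14 of 38 and in 33.8% of promoters.

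Per length, the rows for genes of the same ring or cap differed widely in level. How reads were counted is not given, so a row may hold only part of a gene's reads. The row of the adipocyte gene Pparg, for example, had no count in any iWAT or eWAT group. Averaged over the 31 libraries, alpha ring genes spanned 76.71 CPM per kb of transcript (Psma4) to 248.9 (Psma5), and beta ring genes 144.5 (Psmb6, the caspase-like subunit) to 1048 (Psmb5). The ATPases, which unfold substrates, spanned 33.58 (Psmc1) to 232.5 CPM per kb (Psmc5), and the other cap subunits 21.37 (Psmd12) to 180.6 (Psmd8). The activator Psme1 stood at 372.8 CPM per kb, while the row for its partner Psme2 stood at 0.52; Psme2 has a near-identical copy, Psme2b, and its level is uncertain. Among assembly genes Psmg1, a chaperone of the alpha ring, was highest at 42.17 CPM per kb and Psmd5, a cap chaperone, lowest at 0.1612. Of the inducible catalytic subunits, Psmb10 was at 256 CPM per kb, Psmb8 at 25.94 and Psmb9 at 1.681. The plot of all genes by library shows how each varied around its own mean.

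**Figure D1:**
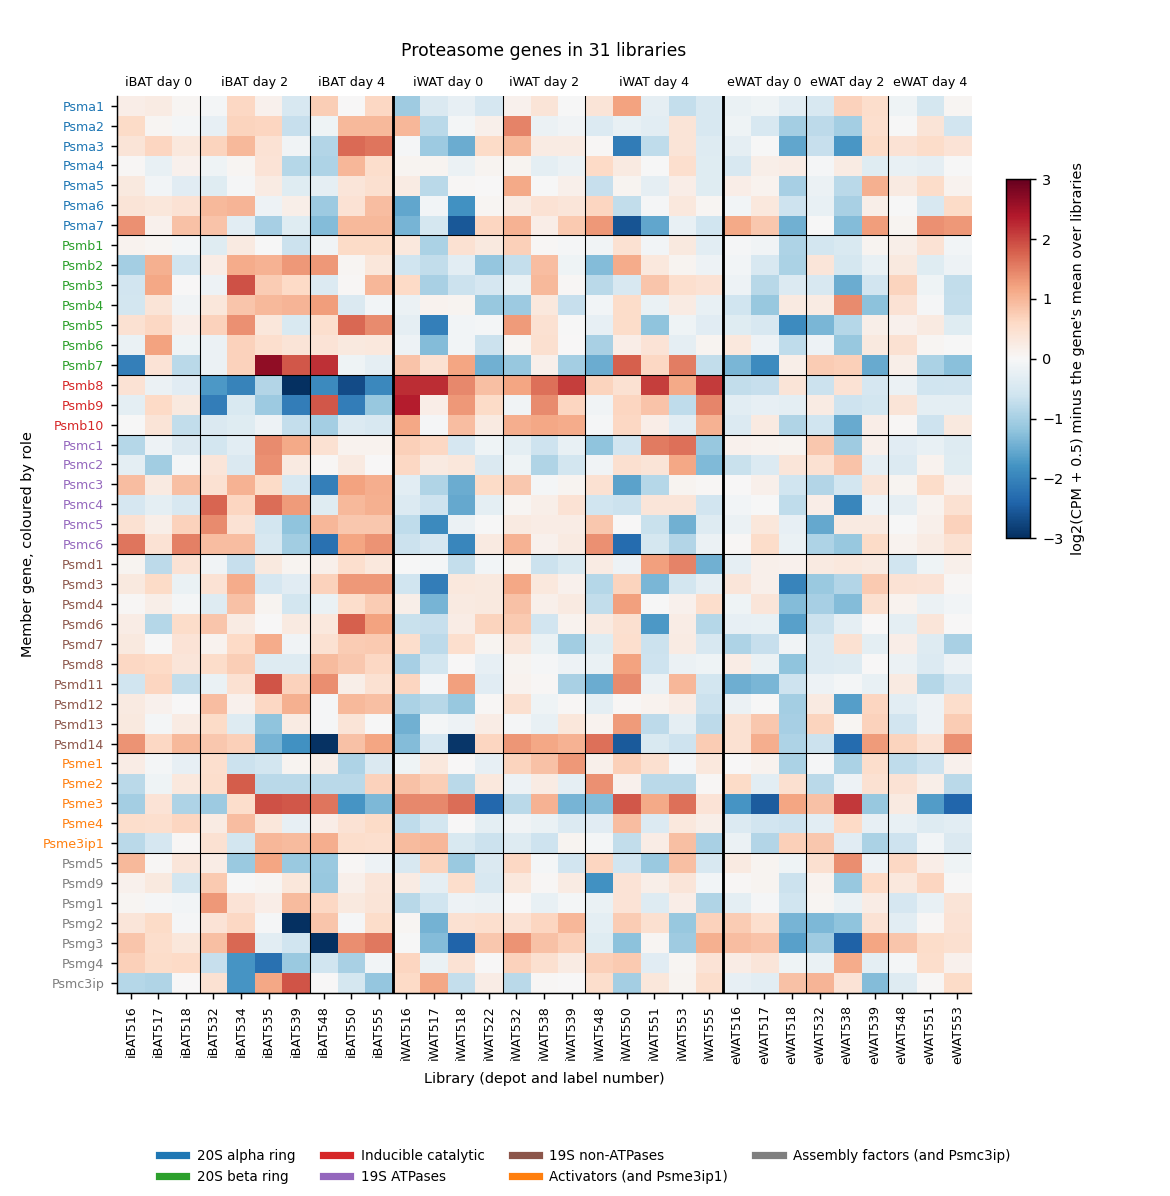
Heat map of the 45 proteasome genes (rows, coloured by role) in the 31 libraries (columns, thick lines between depots): colour is log2(CPM + 0.5) minus the gene's mean, on a scale of -3 to 3. Psmb8 is highest in iWAT, and Psme3, Psmb7, Psmd14, Psmc6, Psma7 and Psmg3 vary most between libraries of 1 group.

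The main question of the design is what cold exposure did in each depot. No proteasome gene passed the test in any of the 9 comparisons between days (edgeR quasi-likelihood test, Benjamini-Hochberg adjusted p under 0.05, 42 genes tested in iBAT, 43 in iWAT and 42 in eWAT). The background was almost as empty, with 0.157% of rows called at day 2 against day 0 in iBAT (13 of 8270) and 0.0% in the other 8 comparisons. Psme2 (53 counts in all libraries) and Psmd5 (72) were too low to test in any depot, and Psmb9 (260) was tested only in iWAT. At an unadjusted p under 0.05, proteasome genes numbered 8 at day 2 and 5 at day 4 in iBAT, 1 and 0 in iWAT, and 1 and 0 in eWAT, each against day 0. Over all rows that share was 12.4% and 7.03% in iBAT, 10.7% and 8.28% in iWAT, and 1.06% and 2.76% in eWAT. Between days 4 and 2, 0 proteasome genes had such a p in any depot, against 3.18% of all rows in iBAT, 5.23% in iWAT and 4.34% in eWAT. DESeq2 called 2 proteasome genes, Psmc4 and Psmg4, at day 2 against day 0 in iBAT, and 0 in the other 8 comparisons. The shares above are those of edgeR. The share of all rows that DESeq2 called is not given here, so its calls have no background. Standard errors set the precision, with a median over the genes of 0.44 to 0.51 (log2) in the 9 comparisons.

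In the cold against day 0, the median over the proteasome genes lay above that over all rows in each depot. At day 4 against day 0, 31 of 42 genes were positive in iBAT with a median difference of 0.44 (log2), against -0.04 over all rows, 28 of 43 in iWAT with 0.26 against -0.01, and 31 of 42 in eWAT with 0.21 against -0.01. At day 2 against day 0 they were 28 of 42 in iBAT (median 0.13, all rows 0.01), 30 of 43 in iWAT (0.39, all rows -0.08) and 28 of 42 in eWAT (0.15, all rows 0.01). Scaling by library size alone moved the all-row median by -0.28 and -0.26 at days 2 and 4 in iBAT, by -0.10 at day 4 in iWAT and by -0.13 and -0.18 in eWAT. Under it the proteasome median at day 2 in iBAT turned to -0.14, with 17 of 42 positive, against -0.27 for all rows. Each day 2 and day 4 comparison of a depot shares its day 0 libraries. Without iBAT539 and iBAT548, 30 of 42 were positive at day 2 (median 0.28) and 32 of 42 at day 4 (median 0.36) in iBAT. The all-row medians without these libraries are not given here, so these values have no background. Between days 4 and 2, iWAT lay below the rows, with 17 of 43 genes positive and a median of -0.17, against 0.07 over all rows. The median there was 0.17 in iBAT (all rows -0.07) and 0.01 in eWAT (all rows -0.01).

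**Figure D2:**
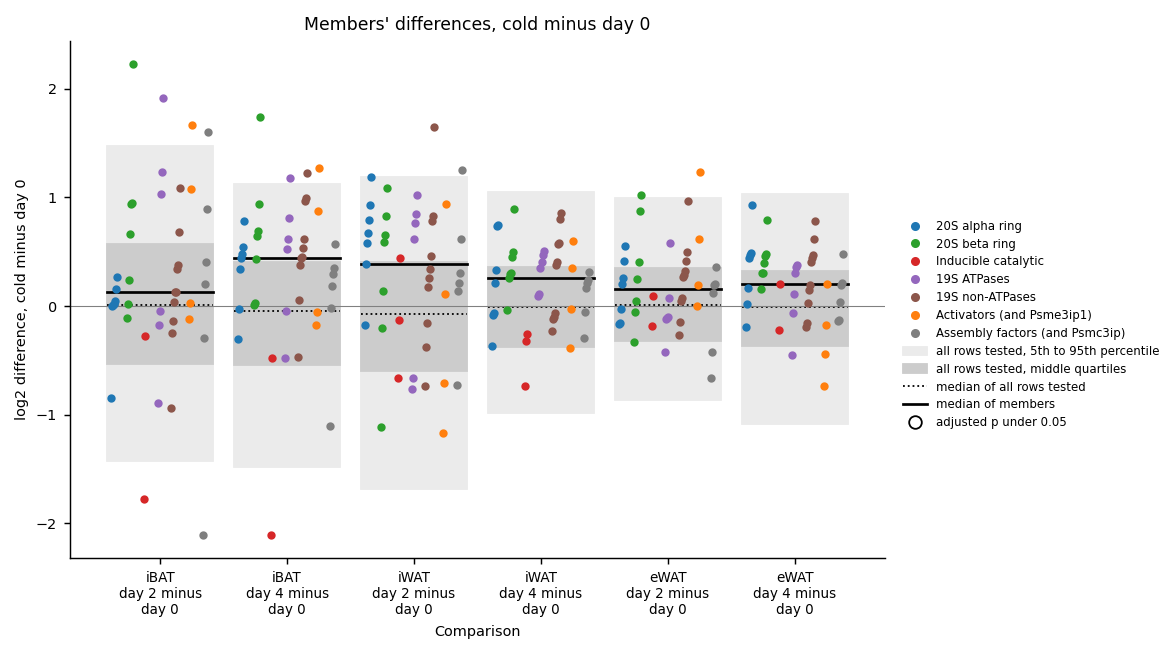
Log2 difference of each proteasome gene (points, coloured by role) in 6 comparisons of cold against day 0 within a depot, beside the 5th to 95th percentile and quartiles of all rows tested (grey boxes). Solid lines are the proteasome medians (0.13 and 0.44 in iBAT, 0.39 and 0.26 in iWAT, 0.15 and 0.21 in eWAT at days 2 and 4) and dotted lines the medians of all rows; no gene passed an adjusted p of 0.05.

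In iBAT, Psmb8 had negative values and Psmb5, the subunit it replaces, positive ones, and neither passed the threshold. All 7 beta ring genes were positive at day 4 (median 0.64), as were 9 of 10 non-ATPase cap genes (0.49), 5 of 7 alpha ring genes (0.44) and 4 of 6 ATPases (0.57). Psmb8 had 35.9, 23.3 and 20.8 CPM at day 0, 7.66, 6.23, 14.1 and 1.36 CPM at day 2, and 6.65, 3.67 and 6.54 CPM at day 4. Every cold library was below every day 0 library. The differences from day 0 were -1.78 at day 2 (SE 0.61, adjusted p = 0.268) and -2.10 at day 4 (SE 0.68, 95% interval -3.59 to -0.62, adjusted p = 0.52; edgeR). Without iBAT539 and iBAT548 they were -1.44 (adjusted p = 0.15) and -2.32 (adjusted p = 0.161). Psmb5 had 1098, 1213 and 918 CPM at day 0, 1273, 2045, 1009 and 574 CPM at day 2, and 1135, 2611 and 2138 CPM at day 4. The day 4 libraries iBAT550 and iBAT555 were high and iBAT548 lay within the day 0 range, giving 0.94 (SE 0.45, 95% interval -0.04 to 1.92, adjusted p = 0.727; 1.17 without iBAT539 and iBAT548, adjusted p = 0.286).

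Among the cap genes of iBAT, the ATPase gene Psmc4 stood out at day 2. It had 317, 145, 301 and 226 CPM at day 2 and 72.2, 182 and 197 CPM at day 4, against 66.1, 75.7 and 66.7 CPM at day 0. All day 2 libraries were above all day 0 libraries, while at day 4 iBAT548 lay within the day 0 range. The difference was 1.91 at day 2 (SE 0.41, adjusted p = 0.105) and 1.18 at day 4 (SE 0.42, adjusted p = 0.573). Without iBAT539 and iBAT548 the day 2 value was 1.92 and passed the threshold (adjusted p = 0.0436), as it did with DESeq2 (1.88, adjusted p = 0.00128). Psmd6, a cap subunit of the lid, had 173, 489 and 325 CPM at day 4 against 163, 76.6 and 206 CPM at day 0, so the groups overlapped (1.22, SE 0.46, adjusted p = 0.606; 1.49 without iBAT539 and iBAT548, adjusted p = 0.275). Between days 4 and 2, the smallest p-values were those of Psmd3 (0.84), Psmd6 (0.85) and Psmc4 (-0.73), all with an adjusted p of 0.986.

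The assembly chaperone gene Psmg4 was low in iBAT at day 2, with 3.83, 1.56, 0.97 and 2.72 CPM against 11, 9.69 and 10.1 CPM at day 0. The groups did not overlap, and the difference was -2.11 (SE 0.67, adjusted p = 0.228), with DESeq2 -2.20 (adjusted p = 0.0355). The Psmg4 row used had a total of 800 counts, and a second accession of the gene had 780. In iBAT the row used held only 5, 3, 2 and 4 counts at day 2, against 27, 32 and 34 at day 0. It passed the filter on low counts mainly through the day 0 libraries, in which it was high. Psmb7, the trypsin-like subunit, had 138, 253, 998 and 569.7 CPM at day 2 against 37.5, 208 and 89 CPM at day 0. The libraries iBAT535 and iBAT539 carried the day 2 difference of 2.23 (SE 0.89, adjusted p = 0.349), and without them and iBAT548 it was 0.85. Psmb6 stood at 0.02 at day 2 and 0.01 at day 4, the activator Psme1 at 0.02 and -0.18, and Psme4 at -0.11 and -0.05, with standard errors of 0.33 to 0.44. Psmb10, the inducible trypsin-like subunit, stood at -0.27 and -0.48, and Psme3, the nuclear activator, at 1.67 (SE 0.93) and 0.87 (SE 0.96). The day 4 value of Psme3 rests on iBAT548, which had 252 CPM, against 23.9 and 32.2 CPM in the other day 4 libraries and 40.4, 110.0 and 43.3 CPM at day 0. It turned to -1.17 without iBAT539 and iBAT548 (adjusted p = 0.546).

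In some iBAT genes the cold and day 0 libraries did not overlap. At day 2, 2 of 42 proteasome genes lay wholly above day 0 (Psmc4 and Psmg1) against 5.78% of all rows, and 2 wholly below (Psmg4 and Psmb8) against 9.95%. At day 4, 8 of 42 lay wholly above (Psmc1, Psmc2, Psmc5, Psmd3, Psmd7, Psmd8, Psmg1 and Psme3ip1) against 6.7%, and again Psmg4 and Psmb8 wholly below against 12.4%. In the same libraries, skeletal muscle markers summed to 8017 to 14130 CPM at day 2 (median 9994). At day 4 the sum was 4720 to 22350 CPM (median 16640), overlapping the 17370 to 51860 CPM of day 0 (median 19240). Of the 12 markers, 0 passed against day 0 at day 2 or day 4. Their part in the proteasome values was not tested.

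In iWAT the day 2 libraries held the largest share of proteasome counts, with a median of 0.916% of a library's counts against 0.77% at day 0. At day 4 in iWAT the median share was 0.707%. The medians at days 0, 2 and 4 were 0.733%, 0.679% and 0.865% in iBAT and 0.745%, 0.624% and 0.74% in eWAT, so the share did not rise in every cold group. Psme1, the interferon-induced activator subunit, had 613, 707 and 951 CPM at day 2 against 351, 482, 392 and 326 CPM at day 0. All 3 cold libraries were higher, and the difference of 0.94 did not pass after adjustment (SE 0.35, adjusted p = 0.415). Psmb5 had 1935, 1099 and 792 CPM at day 2 against 656, 192, 747 and 762 CPM at day 0, without overlap (1.08, SE 0.53, adjusted p = 0.481). Psmc4 had 97.8, 105 and 126 CPM at day 2 against 69.8, 60.9, 32 and 75.6 CPM at day 0, also without overlap (0.85, SE 0.40, adjusted p = 0.477). In all, 8 of 43 genes lay wholly above day 0 (Psma1, Psma6, Psmb5, Psmb6, Psmc4, Psmc5, Psmd14 and Psme1) against 8.15% of rows, and 0 lay wholly below against 3.83%.

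The day 2 and day 0 libraries of iWAT also differed in the library score described at the end, which ranks libraries along the main axis of variation within groups. All 3 day 2 libraries lay at its low end, and 3 of the 4 day 0 libraries (iWAT516, iWAT517 and iWAT518) at its high end; Psmd14, one of the 8 genes, fell with the score in every depot. With the score as a covariate the day 2 values were 1.09 for Psme1, 1.03 for Psmb5 and 0.81 for Psmc4. In that fit 34 of 43 genes were positive with a median of 0.34, and 0 passed. The all-row median and the share of all rows called in that fit are not given here, so these values have no background. Brown adipocyte markers (6 of 8 with a row, Zic1 at 0) summed to 3898 to 9365 CPM at day 2 against 111 to 608.5 CPM at day 0, and skeletal muscle markers (12 of 12, Myh4 at 0 at day 2) to 23.31 to 61.4 CPM against 40.23 to 2601 CPM. The part of these tissues in the proteasome values was not tested.

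At day 4 in iWAT, 0 of 43 genes lay wholly above or below day 0, against 0.856% and 1.14% of rows. All 6 ATPases were positive with a median of 0.38, and all 3 inducible catalytic genes negative with a median of -0.32. The smallest p-values belonged to the beta ring gene Psmb2 (0.89, SE 0.46, adjusted p = 0.672), the alpha ring gene Psma1 (0.74) and the activator Psme4 (0.60). Psmb8 did not stand out in the cold here, at -0.13 (SE 0.49) at day 2 and -0.32 (SE 0.43) at day 4. Psmb9 was -0.66 and -0.73, Psmb10 0.44 and -0.26, and Psmb5 0.26 at day 4. Between days 4 and 2, Psmb7 was 1.40 (SE 0.74, adjusted p = 0.779), Psmc2 0.85 and Psmd1 0.95. Epididymis and testis markers summed to 5.15 to 39.87 CPM at day 2 and 1.663 to 4500 CPM at day 4, against 8.282 to 787.3 CPM at day 0, and their part was not tested.

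In eWAT the lid subunit gene Psmd11 was the 1 gene with an unadjusted p under 0.05 in the cold. It had 59, 63.5 and 55.8 CPM at day 2 against 23.4, 25.1 and 42.6 CPM at day 0, without overlap (0.97, SE 0.41, adjusted p = 1). At day 2, 3 of 42 genes lay wholly above day 0 (Psmd1, Psmd11 and Psme4) against 2.12% of rows, and 0 wholly below against 2.67%. At day 4, all 7 beta ring genes were positive with a median of 0.40, and 3 genes lay wholly above day 0 (Psma3, Psmb5 and Psme4) against 4.9%, with Psmc1 wholly below against 4.13%. Psmb5 had 867, 961 and 622 CPM at day 4 against 616, 571 and 214 CPM at day 0 (0.79, SE 0.54). Psmb8 was 0.09 and -0.22 at days 2 and 4, Psmb10 -0.18 and 0.21, Psmb6 -0.05 and 0.30, Psmb7 1.02 and 0.16, Psme1 0.20 and -0.17, and Psme3 1.24 and -0.74, with an adjusted p of 1 each. Macrophage markers summed to 343.6 to 722.5 CPM at day 4 against 131.9 to 278.6 CPM at day 0, and their part was not tested.

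Whether the cold difference itself differed between depots was tested with interaction terms over all 31 libraries. No proteasome gene passed in any of 4 such contrasts (edgeR; 0.0% of 11041 rows called in each, and 0 proteasome genes by DESeq2). At an unadjusted p under 0.05 there were 9 and 3 of 43 genes for iBAT minus iWAT at days 2 and 4 (10.4% and 5.76% of all rows), and 3 and 1 for iBAT minus eWAT (4.29% and 4.03%). Psmb8 had negative values in all 4 contrasts, -1.72 and -1.87 against iWAT and -1.93 and -2.03 against eWAT at days 2 and 4, with standard errors of 0.72 to 0.78 and adjusted p-values of 0.469 to 1. Other large values at day 2 were those of Psmg4 (-2.45 against iWAT, SE 0.66, adjusted p = 0.409), Psmb7 (3.22 against iWAT, SE 1.21, adjusted p = 0.45) and Psmc4 (1.98 against eWAT, SE 0.64, adjusted p = 0.985). The day 2 contrast against iWAT also runs along the library score. At the high end lay 2 day 2 iBAT and 3 day 0 iWAT libraries, but no day 0 iBAT or day 2 iWAT library. Psmb7 rose with the score in both depots (1.23 and 1.20 log2 per unit). This contrast with the score as a covariate is not given here. Contrasts of the same day share their iBAT libraries, and RLE scaling moved the all-row median by 0.11 to 0.18 in 3 of the 4.

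Between depots, Psmb8 accounted for 5 of the 10 calls made on proteasome genes. Psmb8 had 20.8 to 35.9 CPM in day 0 iBAT, against 123, 124, 72.4 and 49.9 CPM in day 0 iWAT and 15.6, 16.2 and 34.2 CPM in day 0 eWAT. At day 4 it had 3.67 to 6.65 CPM in iBAT, against 42.4, 36.3, 111, 58.2 and 115 CPM in iWAT and 23.1, 17.3 and 17.5 CPM in eWAT. At both times iWAT lay wholly above both other depots, and at day 4 iBAT lay wholly below eWAT. The difference of iBAT from iWAT was -1.79 at day 0 (SE 0.53, adjusted p = 0.0182) and -3.67 at day 4 (SE 0.58, adjusted p = 7.79e-05; edgeR over all rows). The difference of iWAT from eWAT was 2.07 at day 0 (SE 0.53, adjusted p = 0.0144) and 1.91 at day 4 (SE 0.52, adjusted p = 0.0168). Against eWAT, iBAT differed by 0.27 at day 0 (SE 0.54, adjusted p = 0.839) and by -1.76 at day 4 (SE 0.58, adjusted p = 0.0341).

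The day 4 call for Psmb8 between iBAT and iWAT held when any 1 of the 8 libraries was left out (-3.84 to -3.40) and in all 9 other settings tried. The iBAT and eWAT call at day 4 was lost without any 1 of the 6 libraries (adjusted p of 0.051 to 0.126) and without both iBAT539 and iBAT548 (-1.84, adjusted p = 0.0563). The day 0 call against iWAT was lost without iBAT517, iBAT518 or iWAT516 (adjusted p up to 0.0931). The iWAT and eWAT calls were lost without eWAT516 or eWAT517 at day 0 and without eWAT551 or eWAT553 at day 4 (adjusted p up to 0.0985 and 0.101). Lymphocyte markers moved the same way: all 11 markers tested passed as lower in iBAT than in iWAT and as higher in iWAT than in eWAT, at both times. At day 0 they summed to 10.38 to 30.59 CPM (iBAT), 2072 to 3791 CPM (iWAT) and 14.81 to 27.28 CPM (eWAT). At day 4 they summed to 0 to 17.28 CPM (iBAT, with Cr2 at 0), 1012 to 3501 CPM (iWAT) and 12.67 to 43.99 CPM (eWAT). Macrophage markers summed to 52.05 to 95.27 CPM in day 4 iBAT against 343.6 to 722.5 CPM in day 4 eWAT. The part of these cells in the Psmb8 values was not tested.

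The other inducible subunits gave weaker contrasts. Psmb10 had 147, 226 and 212 CPM in day 4 iBAT against 290.2, 459, 342, 238 and 615 CPM in day 4 iWAT, without overlap (-0.99, SE 0.40, adjusted p = 0.0825); at day 0 the difference was -0.71 (adjusted p = 0.234). Psmb9, on chromosome 17 at 34182030 to 34187330, had 1.22, 2.73 and 2.08 CPM in day 0 iBAT against 10.4, 1.95, 4.75 and 2.66 CPM in day 0 iWAT, and at most 2.29 CPM in any eWAT library (-1.27 against iWAT, SE 0.88, adjusted p = 0.329). The Psmb9 row passed the filter on low counts mainly through iWAT libraries. Set against the subunit it replaces, per length, Psmb8 was far below Psmb5 in every depot. For iBAT the median log2 ratio was -6.31, -8.66 and -9.16 at days 0, 2 and 4, for iWAT -3.74, -4.56 and -4.48, and for eWAT -5.99, -5.05 and -6.08. In iBAT the day 0 range (-6.55 to -5.78) did not overlap the day 2 range (-9.26 to -6.99) or the day 4 range (-10.21 to -8.24). Psmb10 to Psmb7 had medians of 0.82, -1.06 and 0.47 in iBAT, 0.78, 2.89 and 0.34 in iWAT, and 1.74, -0.59 and 1.1 in eWAT, and the medians of Psmb9 to Psmb6 lay between -8.6 and -5.13 in all groups. These ratios are descriptions of single rows, with 0.5 added to each count.

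**Figure D3:**
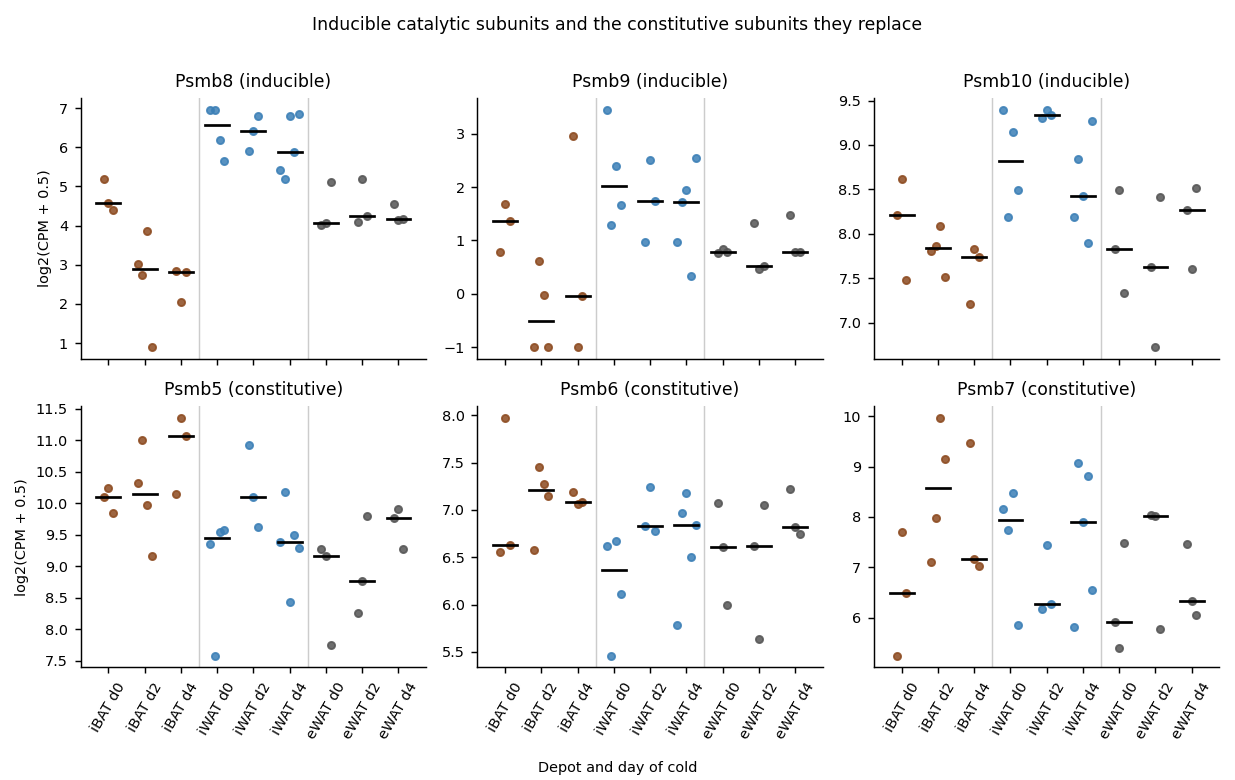
Level of the inducible catalytic genes Psmb8, Psmb9 and Psmb10 (top) and the constitutive Psmb5, Psmb6 and Psmb7 (bottom) in each library, as log2(CPM + 0.5), by depot and day, with lines at the medians. Psmb8 in iBAT lies at 20.8 to 35.9 CPM at day 0 and at 1.36 to 14.1 CPM in the cold, while all iWAT libraries have 36.3 CPM or more.

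Among the constitutive genes, Psmb5, Psmd6 and Psma3 were called at day 4, each higher in iBAT relative to iWAT. Psmb5 had 1135, 2611 and 2138 CPM in day 4 iBAT against 666, 1156, 344, 724 and 627 CPM in day 4 iWAT, and the groups overlapped only between the lowest iBAT and the highest iWAT library (1.48, SE 0.47, adjusted p = 0.0292). Psmd6 had 173, 489 and 325 CPM in iBAT against 169.7, 196, 42.1, 163 and 77.1 CPM in iWAT (1.34, SE 0.46, adjusted p = 0.0422). Psma3, an alpha ring subunit, had 165, 998 and 931 CPM in iBAT against 314, 71.4, 179, 397 and 233 CPM in iWAT (1.55, SE 0.55, adjusted p = 0.0493). In all 3 genes iBAT548 was the lowest iBAT library, and the other iBAT libraries were higher than every iWAT library. Without iBAT539 and iBAT548 the values were 1.85 for Psmb5, 1.75 for Psmd6 and 2.12 for Psma3, all called. The calls of Psmb5 and Psmd6 were each lost without iBAT550, iBAT555, iWAT551 or iWAT555, and that of Psma3 also without iWAT550 (adjusted p up to 0.115, 0.192 and 0.169). All 3 calls were also lost with library size alone, with the compared groups only and with the label number as a block, and those of Psmd6 and Psma3 with the score as a covariate (adjusted p up to 0.173 for Psmb5, 0.172 for Psmd6 and 0.181 for Psma3). At day 0, Psmb5 differed by 0.87 between iBAT and iWAT (SE 0.50, adjusted p = 0.231) and by 1.20 between iBAT and eWAT (SE 0.55, adjusted p = 0.178).

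Psme4, an activator known for the degradation of acetylated histones, on chromosome 11 at 30771775 to 30881150, was higher in iBAT before cold. It had 74.2, 72.4 and 80.1 CPM in day 0 iBAT against 29.8, 34.8, 51.6 and 41.6 CPM in day 0 iWAT and 38.4, 33.9 and 33 CPM in day 0 eWAT, with no overlap. The differences were 0.94 against iWAT (SE 0.33, adjusted p = 0.0451) and 1.10 against eWAT (SE 0.35, adjusted p = 0.0444). The calls were fragile: against iWAT the call held in 1 of 7 fits that left out a library, and against eWAT in 0 of 6 (adjusted p of 0.0955 to 0.124). At day 4 the values were 0.20 (adjusted p = 0.694) and 0.73 (adjusted p = 0.146). Psme1 differed by -0.02 and 0.19 against iWAT and eWAT at day 0 and by -0.67 and 0.04 at day 4, and Psme3 by -1.50, -0.22, -0.77 and 1.14, with no call. The day 4 values of Psme3 were -2.56 and -0.69 without iBAT539 and iBAT548.

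Few proteasome genes were called between depots relative to other rows. Between iBAT and iWAT, 2 of 43 were called at day 0 (Psmb8 and Psme4) against 17.9% of rows and 4 at day 4 (Psmb8, Psmb5, Psmd6 and Psma3) against 17.6%. Between iBAT and eWAT, 1 was called at day 0 (Psme4) against 10.3% and 1 at day 4 (Psmb8) against 18.1%, and between iWAT and eWAT Psmb8 alone was called at day 0 against 7.82% and at day 4 against 9.94%. The median difference of the 43 genes was 0.22 and 0.31 for iBAT against iWAT at days 0 and 4, with all rows at -0.18 and -0.37, and 0.35 and 0.49 against eWAT, with all rows at -0.18 and -0.41. Scaling by library size alone moved the all-row medians of these 4 comparisons to -0.53, -0.79, -0.62 and -0.82; the proteasome medians then were -0.14, -0.02, -0.10 and 0.12, so that only the last stayed positive. RLE scaling moved the all-row medians at day 0 by -0.16 (iWAT) and -0.12 (eWAT).

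**Figure D4:**
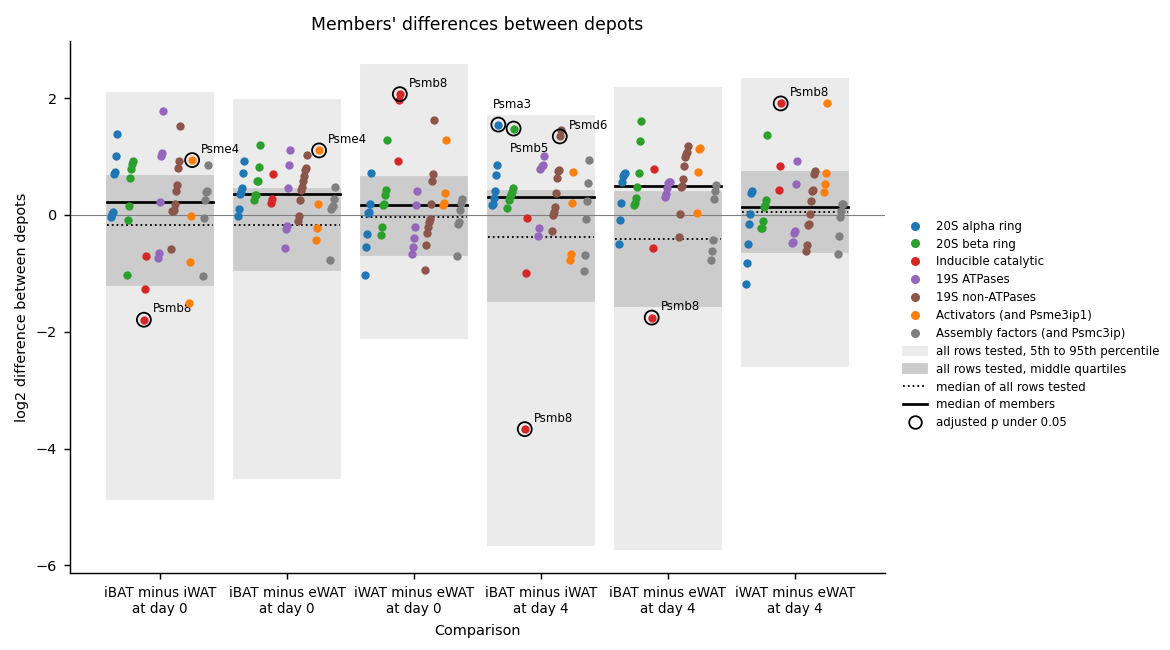
Log2 difference of each proteasome gene (points, coloured by role) in 6 comparisons between depots at days 0 and 4, with the 5th to 95th percentile and quartiles of all 11041 rows tested in grey; rings mark an adjusted p under 0.05. Psmb8 is ringed in 5 comparisons (-3.67 to 2.07), Psme4 at day 0, and Psma3, Psmb5 and Psmd6 in iBAT against iWAT at day 4.

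Genes that act with the proteasome were called between depots but not between days. The same contrast held for all rows, of which at most 0.157% were called in any comparison between days. In the comparisons between days, no gene of 4 lists passed (tested were 12 of 20 proteasome-bound factors, 6 of 14 ubiquitin and unfolding genes, 4 or 5 of 6 control genes and 6 or 7 of 11 antigen presentation genes). Of 12 tested proteasome-bound factors, 2 passed as higher in iBAT against iWAT at both times, when 17.9% and 17.6% of all rows were called: the ubiquitin shuttle Ubqln4 (1.94, adjusted p = 0.00106 at day 0 and 1.35, adjusted p = 0.0131 at day 4) and the proteasome-stimulating zinc finger gene Zfand5 (0.84, adjusted p = 0.0413 and 0.98, adjusted p = 0.0133). Of 5 tested control genes, Nfe2l1 was higher in iBAT than in eWAT at day 4 (3.18, SE 1.11, adjusted p = 0.0455), at 0 to 16.8 CPM over all libraries, with iBAT548, iBAT535 and iBAT539 at 16.8, 13.1 and 6.8 CPM; 18.1% of all rows were called. Day 4 iBAT had 16.8, 3.67 and 1.87 CPM against 0.6874 to 0.9748 CPM in day 4 eWAT. The row's counts were low, at 4 to 53 per library in day 4 iBAT and 3 to 4 in day 4 eWAT. Day 0 iBAT had 2 to 4, so the level of the gene is uncertain. The row passed the filter on low counts, here and in the fit of iBAT alone, mainly through cold iBAT libraries. It was tested because of the libraries in which it was high, and its values carry that limit. The Nfe2l1 difference was 1.80 without iBAT539 and iBAT548 and did not pass (adjusted p = 0.356). In the cold it stood at 2.76 at day 2 (SE 1.12, adjusted p = 0.355) and 3.22 at day 4 (SE 1.16, adjusted p = 0.573) in iBAT, and it was too low to test in iWAT and eWAT alone. Of 7 tested antigen presentation genes, Irf8, a transcription factor of blood cells, was lower in iBAT than in iWAT at day 0 (-3.04, adjusted p = 0.00984), and at day 4 Irf8 (-3.51), the class I gene H2-K1 (-2.64), the peptide-trimming gene Erap1 (-1.64) and the peptide transporter gene Tap2 (-1.58) were lower, 4 of 7 when 17.6% of all rows were called. Erap1 was also lower in iBAT than in eWAT at day 4 (-1.53), and Irf8 (2.98, day 0) and Tap2 (1.76, day 4) were higher in iWAT than in eWAT. All 7 had negative values for iBAT against iWAT at day 0 (median -1.49) and at day 4 (median -1.64).

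Libraries of the same depot and day differed widely for a few genes. The within-group SD of log2 levels had a median of 0.67 over 43 proteasome genes, against 0.78 over 11041 rows. It was lowest for Psmg1 (0.36), Psme4 (0.37) and Psmb1 (0.41), a non-catalytic beta subunit, and highest for Psme3 (1.53), Psmg3 (1.45), Psmd14 (1.39), Psmb7 (1.20), Psma7 (1.14) and Psmc6 (1.05). Without the proteasome genes, the first axis of a depot's own libraries held 50.4% (iBAT), 39.5% (iWAT) and 40.4% (eWAT) of the within-group variance. To place libraries along the main within-group axis, each received a score from the axis found in the other depots, again without these genes. The share of variance along that axis was not computed. At its high end lay 3 iBAT libraries (iBAT539, iBAT535 and, of day 4, iBAT548), 6 iWAT libraries (of day 4, iWAT553, iWAT550 and iWAT551, and of day 0, iWAT518, iWAT516 and iWAT517) and 3 eWAT libraries (eWAT538, eWAT532 and, of day 0, eWAT518). They make up no group of the study, and what sets them apart was not tested.

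Per unit of score, with days in the fit, 6 of 42 proteasome genes were higher in iBAT (9.21% of all rows) and 6 lower (9.59%), 4 and 5 of 43 in iWAT (9.77% and 9.92%), and 3 and 9 of 42 in eWAT (9.82% and 8.5%). The same 6 genes passed in all 3 depots. The share of all rows that passed in all 3 was not computed, so this count has no background. Psme3 (1.41, 1.52 and 1.67 log2 per unit in iBAT, iWAT and eWAT) and Psmb7 (1.23, 1.20 and 1.09) were higher, and Psmd14, the deubiquitinase of the lid (-1.37, -1.11 and -1.09), Psmc6, an ATPase (-1.15, -0.92 and -0.53), Psma7, an alpha subunit (-0.78, -1.06 and -1.14), and Psmg3, an alpha ring chaperone (-1.44, -0.77 and -1.26), were lower. Psmd14 had 12 to 36.9 CPM in the 3 high-scoring iBAT libraries against 149.9 to 249.6 CPM in the other 7, 12.5 to 71 CPM in the 6 high-scoring iWAT libraries against 153.9 to 311 CPM in the other 6, and 19.4 to 62.3 CPM in the 3 high-scoring eWAT libraries against 131 to 252 CPM in the other 6. Psme3 ran the other way, at 252 to 309 CPM against 23.9 to 118 CPM in iBAT, 181 to 299.9 CPM against 15.7 to 169.7 CPM in iWAT, and 152 to 358 CPM against 14.3 to 99.4 CPM in eWAT. For neither gene did the ranges overlap in any depot. With the score as a covariate, 1 proteasome gene passed between days, Psmc4 at day 2 in iBAT (2.10, adjusted p = 0.0397), and the Psmb7 difference there was 0.98. The share of all rows that passed with the covariate is not given here, so this call has no background.

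**Figure D5:**
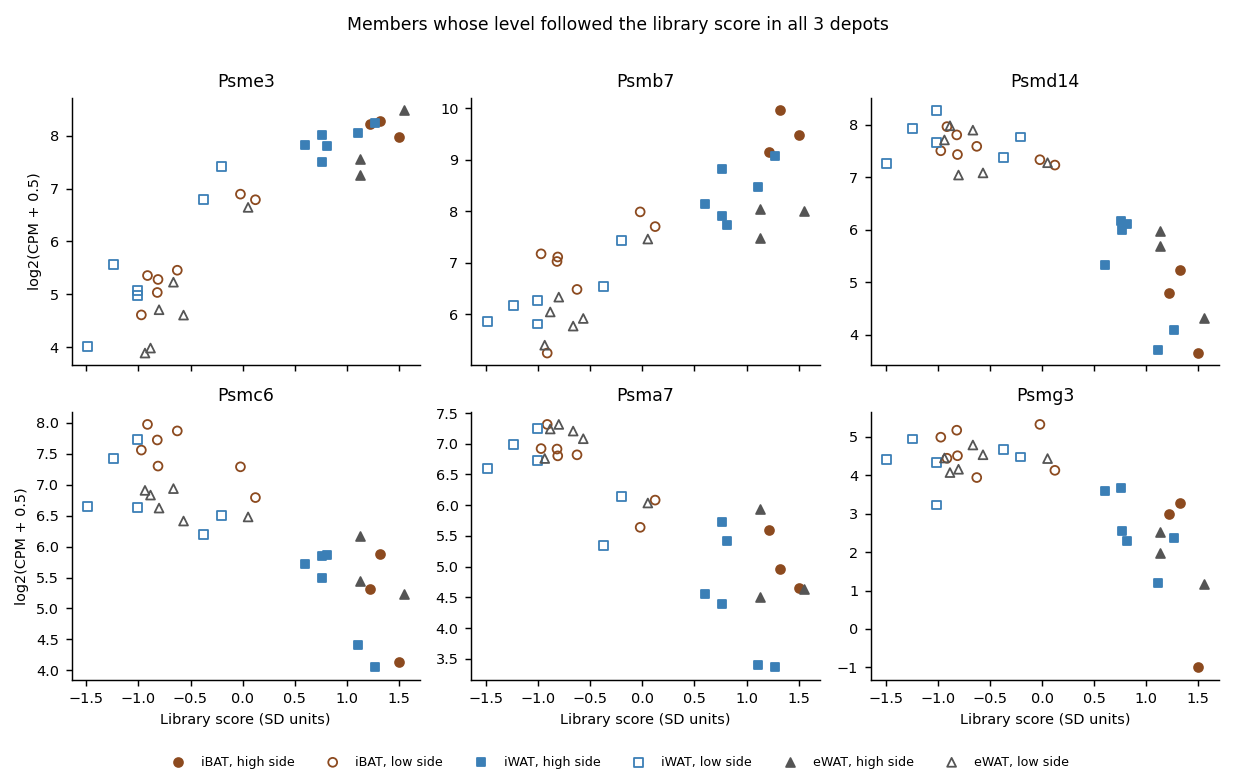
Level of 6 proteasome genes, as log2(CPM + 0.5), against the library score (in SD units, computed without proteasome genes), 1 point per library in colours of the depot; filled points are the 3 iBAT, 6 iWAT and 3 eWAT libraries at the high end. Psme3 and Psmb7 climb with the score and Psmd14, Psmc6, Psma7 and Psmg3 fall with it in all 3 depots.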

How the data were processed

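RNA of 31 adipose libraries was sequenced. The authors deposited whole-number counts per RefSeq accession, 1 table per depot; cutadapt, BWA and mm10 are named per the submitters' processing notes, and how reads were counted is not given in the sources used here. Missing values were read as a count of 0; no file holds a 0. Symbols came from RefSeq for 17030 accessions and from GENCODE for 105, with none for 199.

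Counts were analysed with edgeR 4.0.16 (R 4.3.3): TMM scaling, rows kept by filterByExpr (minimum count 10, total 15), the two-sided robust quasi-likelihood F-test, and Benjamini-Hochberg adjustment within each of 19 comparisons, with a threshold of 0.05. Days were compared in 1 fit per depot (8270, 9574 and 10043 rows in iBAT, iWAT and eWAT), depots and interactions in 1 fit of all 31 libraries (11041 rows). CPM used TMM library sizes, and levels per kb used annotated transcript lengths. The library score projects a library on the first within-group axis of the other depots (log2 CPM, prior count 2), scaled to an SD of 1.

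Alternatives were DESeq2 1.42.0, other scalings, no filter, the score as covariate, a block, fits of the compared groups only and leaving out libraries. Genes were named by a rule: catalytic pairs, activators, Nfe2l1, called genes or else the 3 smallest p-values, role extremes, and called genes of the lists, of which 1 is not reported here. Genes, lists and the rule were chosen with earlier results of these data known. The fits were tested on simulated data.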

Additional observations from a re-analysis of the deposited data

Results flagged for a closer look

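In day 0 iWAT, 1 library stood far from the other 3 for 2 genes. Psmd1, the largest scaffold subunit of the cap, was at 84.27 CPM in iWAT518, and the next lowest library had 130.8 CPM. Psme3 was at 15.65 CPM in iWAT522, and the next lowest library had 223.9 CPM; iWAT522 was the only day 0 iWAT library at the low end of the library score. Dixon's test was run on 61 gene and group combinations and picked these 2; chance picks about 1 in 20.

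Psma8, the testis-specific alpha subunit, had a row outside the tables shared by all depots and was not tested. Its 65 counts included 7 in iWAT522, 33 in iWAT555, 4 in eWAT516 and 13 in eWAT553. Each is above the 3 counts that a count of 0 allows.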

How the results depend on the processing

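Of the counts of proteasome genes called, 254 stayed within 1.5 times the reported value under an alternative and 49 did not. The 254 include comparisons with 0 calls as reported and 0 under the alternative, so they do not measure how stable the calls are. No called difference of a named gene changed sign. Called between iBAT and iWAT at day 0 (2 as reported) was 1 with RLE scaling, library size alone, no filter and the block. Between iBAT and eWAT at day 0 (1) it was 0 under the same 4, and at day 4 (1) 0 without the filter, in a fit of the compared groups only and with the block, and 2 with the score covariate and DESeq2. Between iWAT and eWAT at day 0 (1) it was 2 with the score covariate and DESeq2 and 0 with the compared groups only; at day 4 (1) it was 0 with the block. Between iBAT and iWAT at day 4 (4) it was 1 with the compared groups only and with the block. At day 2 in iBAT (0) it was 1 with the score covariate and 2 with DESeq2. Leaving out 1 library gave 0 to 2 (iBAT against iWAT) and 0 to 0 (iBAT against eWAT) at day 0, 1 to 6 and 0 to 0 at day 4, and 0 to 1 for iWAT against eWAT at both times. The cause of these changes was not tested.

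The next settings were chosen after seeing the data. Without iBAT539 and iBAT548, 1 gene (Psmc4) was called at day 2 in iBAT. With low-scoring libraries only, 9 were called between iBAT and iWAT and 7 between iBAT and eWAT at day 4. That left 2 iBAT, 2 iWAT and 3 eWAT libraries of day 4. The share of all rows called is not given for these or the preceding settings, so their counts have no background.

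The label numbers recur between depots within a day. Over 23 pairs with the same number, deviations correlated at -0.441 to 0.366 (median -0.0757), and over 82 pairs with different numbers the median was 0.023. With 3 to 5 libraries per group, these values cannot decide whether a number is a mouse. The labels do not say so, and the main fits did not pair libraries by number. The replicate block is given above and gave 1 for iWAT against eWAT at day 0.

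The shallowest library had 1502823 counts, and the median standard error over the genes was 0.44 to 0.53 (log2) for days and depots. Intervals and errors cover the spread between libraries.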
